A study of Danio rerio with 4 samples.

Results

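The genes described here encode carrier proteins and metabolic enzymes of the hepatocyte, the main cell of the liver, together with 2 transcription factors that act there. They were chosen by a fixed list of 32 zebrafish (*Danio rerio*) symbols, of which 28 had a row among the 15171 of the deposited gene table and 4 (*fetub*, *itih2*, *hpxa* and *a2ml*) had none. No symbol had more than 1 row, and *itih3a* was found under the current name *itih3a.1*. The 28 genes comprise 12 secreted carriers and protease inhibitors, 2 intracellular lipid carriers, 9 enzymes of amino acid catabolism, 1 enzyme of urate oxidation, 2 of gluconeogenesis and 2 transcription factors.

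RNA was sequenced after ribosomal RNA removal from 2 pools of *uhrf1* mutants (hi272 allele, genotype -/-) and from 2 pools of phenotypically normal siblings, which the labels give as a mixture of +/+ and +/- larvae. All were whole larvae at 5 days post fertilization (dpf), sorted by phenotype, with 10 larvae in each pool. Uhrf1 recruits the maintenance DNA methyltransferase to newly replicated DNA, hi272 is an insertional allele, and the contrast of mutants with siblings is the only one in the design. The labels mention separate clutches but do not say which library came from which, and p-values here reflect only how these pools differ.

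Hepatocytes secrete most plasma proteins, among them carriers of iron, copper, vitamins and thyroid hormone, and inhibitors that hold proteases in check. They also break down surplus amino acids, make glucose from amino acid and glycerol carbon, and oxidize purines. Transcription factors such as Hnf4a and the bile acid receptor encoded by *nr1h4* control many of these genes. Several of the genes are not confined to the liver: *ahcy* is used in most cells, *hnf4a* is also expressed in intestine and, in mammals, kidney, and yolk-lining cells of fish larvae make plasma proteins too.

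The gene table held between 2996676 and 9100665 counts per library, the highest total being that of mutant 1. Levels are given in CPM, which are counts per 1000000 of a library, with library sizes adjusted by TMM (trimmed mean of M values), and 1 count was worth 0.110 CPM in mutant 1, 0.288 in mutant 2, 0.225 in sibling 1 and 0.314 in sibling 2. The values are not per length, so CPM of different genes do not rank their numbers of RNA molecules. Sums over genes and ratios between genes are of counts, and are meant for comparing libraries. Folds are mutant over sibling, with the standard error (SE) on the log2 scale. A gene was called when its Benjamini-Hochberg adjusted p, from edgeR's quasi-likelihood test over all 12786 genes tested, was under 0.05. The count of *uhrf1* does not check the labels, since its level was 33.3 and 24.2 CPM in mutants 1 and 2, against 21.4 and 46.8 CPM in siblings 1 and 2. The hepatocyte markers *fabp10a*, *tfa* and *cp* were detected in all 4 libraries.

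Of the 28 genes, all of which passed the filter on low counts, 11 were lower and 1 was higher in mutants, and 16 were not called. Over all genes tested, 3.79% were called lower and 4.58% higher. The 11 that fell were *uox*, *fbp1b*, *tdo2a*, *ttr*, *gc*, *rbp2b*, *agxtb*, *hgd*, *serpina1*, *hnf4a* and *itih3a*, and the 1 that rose was *cp*. Both mutants lay below both siblings for 19 of the 28 genes and above both for 3, while the groups overlapped for 6. Over all genes tested, both mutants lay below both siblings for 26.9% and above both for 28.0%. The median log2 fold change of the 28 genes was -1.04, and that of all genes tested was 0.00. Without sibling 1 the median of the 28 genes was -0.69.

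Together the 28 genes took 0.453% and 0.496% of the counts in mutants 1 and 2, against 0.794% and 0.701% in siblings 1 and 2. Their summed level was 4539 and 4705 CPM in the mutants, against 8913 and 6602 CPM in the siblings. On these sums the mutants thus lay close to each other and below both siblings, which differed more between themselves. The largest contributions to the sum in every library were those of *tfa*, *rbp4* and *ahcy*, none of which was called. In RNA from whole larvae, fewer hepatocytes, less of an RNA in each hepatocyte and less of it from other tissues cannot be told apart.

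Markers of other cell types in the same larvae are given here beside these values, and their part in the results was not tested. Of 14 exocrine pancreas markers, 13 fell, with the lowest p for *cpa4*, *cpa1*, *ela2l* and *cel.1*, and their summed level was 1634 and 232 CPM in mutants 1 and 2, against 19859 and 9613 CPM in siblings 1 and 2. Of 11 intestinal markers, 9 fell (5 without mutant 2), led by *fabp2*, *slc15a1b*, *fabp1b.1* and *pla2g12b*, and their summed level was 1162 and 938 CPM in the mutants, against 3438 and 2814 CPM in the siblings. The summed level of both lists was thus lower in both mutants. Of 7 genes tested for the yolk syncytial layer and lipoprotein secretion, *mttp*, *apoa4b.2* and *slc40a1* fell and *apoeb* rose, and without mutant 1 or without mutant 2, 1 was lower and none higher, while without sibling 2 none was higher. The summed level of this list was 16213 and 22466 CPM in the mutants, against 18908 and 20801 CPM in the siblings. Most of it came from *apobb.1*, at 11556 and 17833 CPM in the mutants, against 13399 and 16064 CPM in the siblings. Of the 7 tested genes, 6 had a log2 fold change below 0 and 1 above, with a median of -0.83. *apoc1* and *mxtx2*, with few or no counts, were not tested. Of 8 biliary markers, edgeR without a block and limma-voom called none. DESeq2, and edgeR with the replicate number as a block, each called 1 higher and 0 lower. Over all genes tested, DESeq2 called 4.51% higher and edgeR with the block 10.7%. Without the block, 2 of the 8 (1 higher and 1 lower) had an unadjusted edgeR p under 0.05. The summed level of the 8 markers was 2082 and 2076 CPM in the mutants, against 2189 and 1723 CPM in the siblings. The keratin gene *krt8* made up most of each sum, at 1242 and 1191 CPM in the mutants, against 1495 and 1064 CPM in the siblings. Of 6 macrophage and leukocyte markers tested, *mpeg1.2* rose and *mpeg1.1* and *coro1a* fell. The 2 falls were not both called without mutant 1 or without mutant 2. Log2 fold changes were below 0 for 4 of the 6 and above 0 for 2. The summed level of the list was 134 and 145 CPM in the mutants, against 103 and 99.4 CPM in the siblings. Most of the mutant sums came from *mpeg1.2*, at 93.9 and 95.5 CPM, against 20.1 and 25.5 CPM in the siblings.

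**Figure D1:**
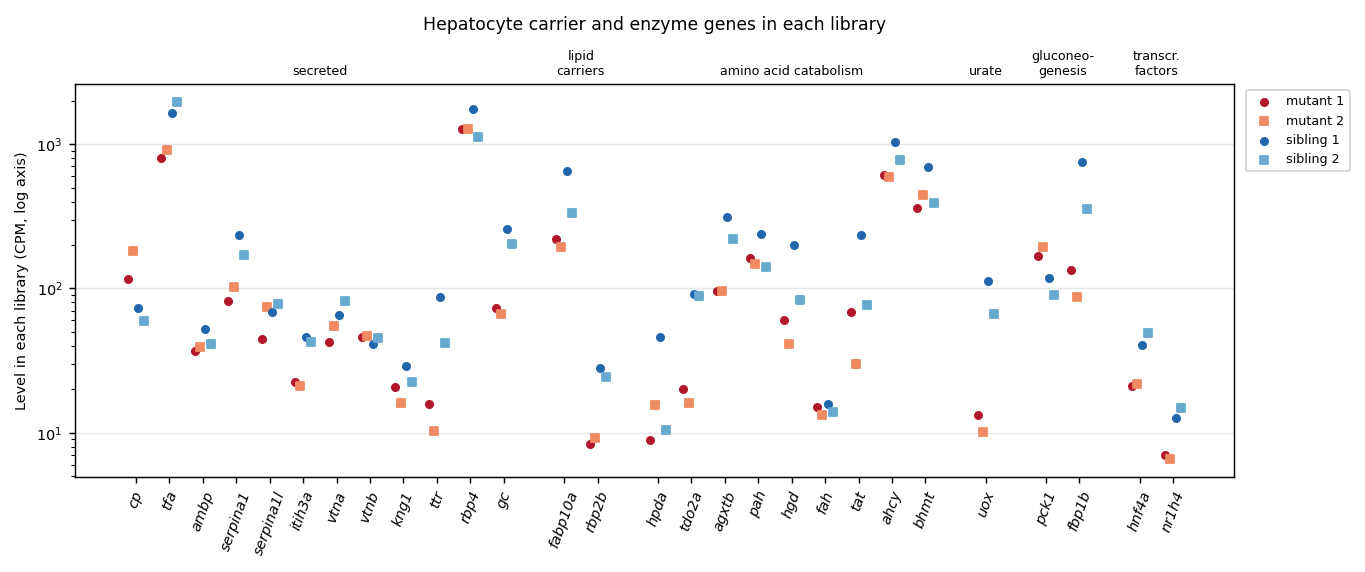
Level of each of the 28 genes in each library, in CPM on a log axis, with genes grouped by role. Red and orange points are mutants 1 and 2, dark and light blue points siblings 1 and 2. The mutants lie below the siblings for 19 genes, above them for *cp*, *pck1* and *vtnb*, and the groups overlap for 6.

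Among the secreted proteins, the carriers split by gene. *ttr* (NM_001005598) encodes transthyretin, which carries thyroid hormone and binds retinol-binding protein. Its level was 15.8 and 10.4 CPM in mutants 1 and 2, against 87.7 and 42.1 CPM in siblings 1 and 2. Both mutants lay well below both siblings, and the fall was 4.84-fold (edgeR log2 fold change -2.27, SE 0.36, adjusted p = 0.00359).

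*gc* encodes the vitamin D-binding protein of plasma. It stood at 73.2 and 66.1 CPM in the mutants, against 259 and 203 CPM in the siblings. The pools of each group lay close together, and the level was 3.31-fold lower in mutants (edgeR log2 fold change -1.73, SE 0.23, adjusted p = 0.00149).

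*tfa* encodes transferrin, the iron carrier of plasma. Its level was 802 and 904 CPM in the mutants, against 1629 and 1959 CPM in the siblings. Both mutants were below both siblings, but the gene was not called (edgeR log2 fold change -1.07, SE 0.35, adjusted p = 0.0903). It was called under 3 of 12 alternatives, with adjusted p from 0.000584 with DESeq2 to 0.497.

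*rbp4*, whose product carries retinol in plasma in a complex with transthyretin, did not share the values of *ttr*. It stood at 1262 and 1270 CPM in the mutants, against 1753 and 1121 CPM in the siblings. The mutants lay between the siblings, and the log2 fold change was -0.18 with a 95% interval of -0.998 to 0.632 (edgeR adjusted p = 0.810). Without sibling 1 that value was 0.17.

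*cp* encodes ceruloplasmin, a copper-carrying ferroxidase that rises in the acute phase response of mammals. It was the only one of the 28 genes called higher. Its level was 117 and 182 CPM in the mutants, against 72.8 and 59.4 CPM in the siblings, so both mutants lay above both siblings. The rise was 2.25-fold (edgeR log2 fold change 1.17, SE 0.26, adjusted p = 0.0211). Without mutant 2 it was 0.82 on the log2 scale and was not called (edgeR adjusted p = 0.163, the highest of its 12 alternatives, whose lowest was 5.33e-05).

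The protease inhibitor genes also differed from each other. *serpina1* and *serpina1l* encode relatives of alpha-1-antitrypsin, an inhibitor of neutrophil elastase in mammals, and lie next to each other, with no protein-coding gene between them on the assembly used for names. *serpina1* stood at 81.8 and 102 CPM in the mutants, against 234 and 171 CPM in the siblings, and both mutants were below both siblings (edgeR log2 fold change -1.15, SE 0.25, adjusted p = 0.0176). *serpina1l* stood at 44.5 and 74.2 CPM in the mutants, against 68.5 and 78.3 CPM in the siblings. Its groups overlapped (edgeR log2 fold change -0.32, 95% interval -0.91 to 0.26, adjusted p = 0.507). The ratio of *serpina1* counts to *serpina1l* counts was 1.84 and 1.37 in the mutants, against 3.41 and 2.19 in the siblings. With 2 libraries against 2, no exact two-sided permutation test of that ratio can go below p = 0.333. The genes may share reads, as identity between them was not measured.

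*itih3a*, a heavy chain of the inter-alpha-trypsin inhibitor family that binds hyaluronan, was at 22.6 and 21.0 CPM in the mutants, against 46.2 and 42.8 CPM in the siblings. The pools of a group nearly coincided (edgeR log2 fold change -1.03, SE 0.22, adjusted p = 0.0200). The light chain bikunin comes from *ambp*, together with the lipocalin alpha-1-microglobulin. *ambp* stood at 37.1 and 39.4 CPM in the mutants, against 52.1 and 41.2 CPM in the siblings, and was not called (edgeR log2 fold change -0.29, 95% interval -0.79 to 0.20, adjusted p = 0.472).

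*vtna* and *vtnb* encode vitronectins, adhesive glycoproteins of plasma and matrix. *vtna* stood at 42.3 and 54.6 CPM in the mutants, against 65.8 and 81.4 CPM in the siblings, with both mutants below (edgeR log2 fold change -0.61, SE 0.23, adjusted p = 0.137). *vtnb* stood at 45.9 and 46.9 CPM in the mutants, against 41.5 and 45.6 CPM in the siblings. Its 4 values were close together (edgeR log2 fold change 0.09, 95% interval -0.37 to 0.56, adjusted p = 0.835), and neither gene was called.

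*kng1* encodes kininogen, the precursor of bradykinin. It stood at 20.7 and 16.1 CPM in the mutants, against 28.9 and 22.6 CPM in the siblings. Both mutants were below both siblings by a margin that was not called (edgeR log2 fold change -0.47, 95% interval -1.07 to 0.13, adjusted p = 0.329). In all, 4 of the 12 secreted genes fell and 1 rose, with a median log2 fold change of -0.54. Without mutant 1 or without mutant 2, 2 secreted genes were lower. The calls of *serpina1* and *itih3a* were lost without mutant 1 and without mutant 2 (adjusted p between 0.0567 and 0.111 in these fits). These were the highest of the 12 alternatives for either gene, the lowest being 3.88e-05 for *serpina1* and 0.000693 for *itih3a*.

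**Figure D2:**
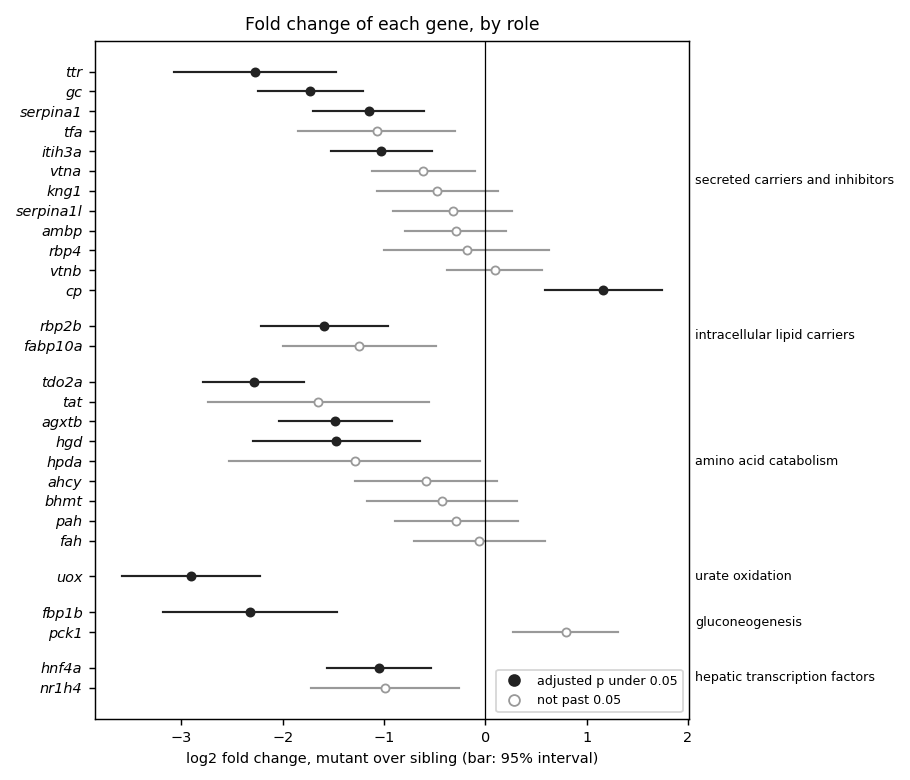
Log2 fold change of each gene, mutant over sibling, with its 95% interval from edgeR, grouped by role. Filled black points passed an adjusted p of 0.05 and open grey points did not. The 11 genes that fell lie between -2.91 (*uox*) and -1.03 (*itih3a*), and *cp* at 1.17 is the only filled point right of 0.

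Both intracellular lipid carriers had lower values in mutants. *fabp10a* encodes the liver basic fatty acid binding protein, and its promoter is the usual driver of hepatocyte transgenes in zebrafish. Its level was 221 and 194 CPM in the mutants, against 651 and 332 CPM in the siblings. Both mutants lay below both siblings, and sibling 1 stood well above sibling 2. The log2 fold change of -1.24 (SE 0.34) missed the threshold narrowly (edgeR adjusted p = 0.0503). It was called under 7 of 12 alternatives, whose adjusted p ran from 0.000147 to 0.313. Without sibling 1 the value was -0.68 and without sibling 2 it was -1.65.

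*rbp2b* encodes a cellular retinol-binding protein. It stood at 8.36 and 9.20 CPM in the mutants, against 28.0 and 24.5 CPM in the siblings. The groups were well apart, and the level was 3.01-fold lower in mutants (edgeR log2 fold change -1.59, SE 0.28, adjusted p = 0.00670). The related *rbp2a*, an intestinal gene listed among the intestinal markers, was at 68.3 and 70.7 CPM in the mutants, against 301 and 168 CPM in the siblings (edgeR log2 fold change -1.75, SE 0.29, adjusted p = 0.00467).

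Of the 9 genes of amino acid catabolism, 3 fell and none rose, with a median log2 fold change of -1.29. Without sibling 1 that median was -0.37, and without sibling 2 it was -1.72 with 5 genes lower. *tdo2a* encodes tryptophan 2,3-dioxygenase, which opens the tryptophan ring at the start of the kynurenine route. It stood at 20.3 and 16.1 CPM in the mutants, against 91.1 and 89.0 CPM in the siblings. The siblings were almost equal, and the fall was 4.88-fold (edgeR log2 fold change -2.29, SE 0.23, adjusted p = 0.000297). Its paralog *tdo2b* stood at 12.3 and 5.75 CPM in the mutants, against 113 and 57.9 CPM in the siblings (edgeR log2 fold change -3.15, SE 0.39, adjusted p = 0.00101). The next enzymes of that route with a tested row, *afmid* and *haao*, were not called, at -0.59 (SE 0.30) and -0.91 (SE 0.26) on the log2 scale.

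*agxtb* encodes an alanine-glyoxylate aminotransferase, which turns glyoxylate into glycine. It stood at 95.9 and 95.5 CPM in the mutants, against 314 and 221 CPM in the siblings. The mutants were almost equal, and the level was 2.80-fold lower than in siblings (edgeR log2 fold change -1.48, SE 0.25, adjusted p = 0.00510). Its paralog *agxta* was at 19.5 and 24.2 CPM in the mutants, against 73.7 and 53.1 CPM in the siblings, and also fell (edgeR log2 fold change -1.56, SE 0.25, adjusted p = 0.00393).

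The genes of phenylalanine and tyrosine breakdown can be followed step by step. *pah* encodes phenylalanine hydroxylase, which makes tyrosine. Its level was 163 and 148 CPM in the mutants, against 237 and 142 CPM in the siblings, so the groups overlapped (edgeR log2 fold change -0.29, 95% interval -0.89 to 0.32, adjusted p = 0.578). *tat* encodes tyrosine aminotransferase, the first step of tyrosine breakdown. It stood at 68.3 and 29.9 CPM in the mutants, against 236 and 76.4 CPM in the siblings. Both mutants were below both siblings, yet the pools of each group differed by 2.29-fold in mutants and 3.09-fold in siblings. The log2 fold change was -1.65 (SE 0.49) and was not called (edgeR adjusted p = 0.0695), with adjusted p from 3.28e-08 to 0.335 over 12 alternatives. Without sibling 1 the log2 fold change was -0.61, without mutant 1 it was -2.41 and without sibling 2 it was -2.24.

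*hpda* and *hpdb* encode 4-hydroxyphenylpyruvate dioxygenases, which form homogentisate. *hpda* was at 8.92 and 15.5 CPM in the mutants, against 46.0 and 10.4 CPM in the siblings. Sibling 1 stood apart from the other 3 libraries, and without it the log2 fold change of -1.29 (SE 0.56, edgeR adjusted p = 0.198) became 0.18. *hpdb*, outside the 28, was at 169 and 140 CPM in the mutants, against 358 and 170 CPM in the siblings, and was not called (edgeR log2 fold change -0.78, SE 0.33, adjusted p = 0.194).

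*hgd* encodes homogentisate 1,2-dioxygenase, the enzyme lacking in alkaptonuria. It stood at 60.1 and 41.1 CPM in the mutants, against 200 and 82.7 CPM in the siblings. Both mutants were below both siblings and the gene was called (edgeR log2 fold change -1.47, SE 0.37, adjusted p = 0.0369). The call was lost without sibling 1 (log2 fold change -0.70), without mutant 2 (-1.23) and with limma-voom (-1.34), and its adjusted p ran from 8.56e-07 to 0.177 over 12 alternatives. *fah* encodes fumarylacetoacetase, the last step, lacking in tyrosinaemia type I. It was at 15.1 and 13.2 CPM in the mutants, against 15.8 and 13.8 CPM in the siblings, with overlapping groups (edgeR log2 fold change -0.06, 95% interval -0.70 to 0.58, adjusted p = 0.929).

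**Figure D3:**
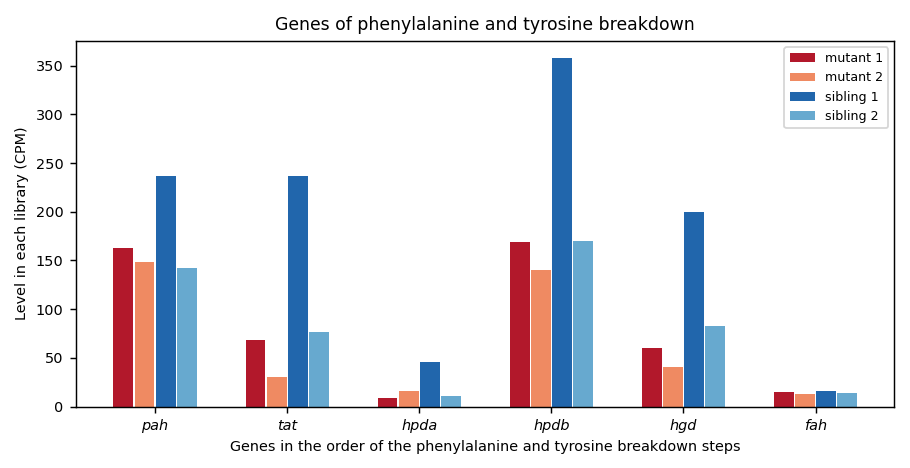
Level in CPM of 6 genes of phenylalanine and tyrosine breakdown, in the order of the reactions, with *hpdb* added as the paralog of *hpda*. Bars are single libraries: red and orange mutants 1 and 2, dark and light blue siblings 1 and 2. Sibling 1 is the highest library for all 6 genes, and both mutants are below both siblings for *tat*, *hpdb* and *hgd* only.

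The genes of the methionine cycle were not called. *ahcy* encodes S-adenosylhomocysteine hydrolase, which removes the product of methylation reactions. Its level was 610 and 595 CPM in the mutants, against 1033 and 777 CPM in the siblings, with both mutants below (edgeR log2 fold change -0.59, 95% interval -1.29 to 0.12, adjusted p = 0.303). *bhmt* encodes betaine-homocysteine methyltransferase, which re-forms methionine. It was at 362 and 442 CPM in the mutants, against 688 and 389 CPM in the siblings, and the groups overlapped (edgeR log2 fold change -0.42, 95% interval -1.16 to 0.32, adjusted p = 0.487).

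In the lists of other genes of these pathways where edgeR without a block called none higher, DESeq2 and limma-voom called none higher either. With the replicate number as a block, edgeR called 1 other gene of amino acid catabolism higher and 11 lower. For other genes of purine breakdown, that fit called 1 higher and 5 lower. Over all genes tested, it called 10.7% higher and 9.11% lower. In these lists the unadjusted edgeR p was under 0.05 for 1 gene with a positive fold change, the argininosuccinate synthase gene *ass1* (0.70, SE 0.27), and without sibling 1, 1 gene of amino acid catabolism and 1 of purine breakdown were higher.

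Of 32 other genes of amino acid catabolism tested, 3 fell and none rose, with a median log2 fold change of -0.37 (-0.15 without sibling 1). These were *tdo2b*, *agxta* and *cbsa*, a cystathionine beta-synthase gene of homocysteine breakdown (edgeR log2 fold change -1.11, SE 0.25, adjusted p = 0.0211). The gene with the next lowest p, *qdpra*, which regenerates the cofactor of phenylalanine hydroxylase, was not called (-0.75, SE 0.21, edgeR adjusted p = 0.0539). *mat1a*, which makes the methyl donor S-adenosylmethionine in liver, was at 168 and 200 CPM in the mutants, against 166 and 204 CPM in the siblings. At -0.01 (SE 0.23) its log2 fold change was close to 0. Without sibling 2, 6 genes of this list were lower.

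*uox* had the lowest log2 fold change of the 28 genes. It encodes urate oxidase, a peroxisomal enzyme of purine breakdown that humans have lost. Its level was 13.3 and 10.1 CPM in the mutants, against 113 and 66.0 CPM in the siblings. The groups were far apart, and the fall was 7.50-fold (edgeR log2 fold change -2.91, SE 0.31, adjusted p = 0.000405). It was called under all 12 alternatives, with log2 fold changes from -3.24 to -2.47.

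Of 8 other genes of purine breakdown tested, 5 fell and none rose, with a median log2 fold change of -1.17. The guanine deaminase gene *gda* (-1.84, SE 0.24), the adenosine deaminase gene *ada* (-1.92, SE 0.34) and the purine nucleoside phosphorylase genes *pnp4b* (-1.12, SE 0.23) and *pnp4a* (-1.22, SE 0.27) had the lowest p. The fifth was the allantoicase gene *allc*, which acts further down the route from urate. *allc* was at 7.59 and 5.18 CPM in the mutants, against 19.6 and 17.3 CPM in the siblings. The genes of the steps right after urate oxidase, *uraha* (-0.36, SE 0.28) and *urad* (-0.55, SE 0.53), were not called. Without mutant 2, 2 of the 8 were lower.

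The 2 gluconeogenic enzymes had fold changes of opposite sign. *fbp1b* encodes fructose-1,6-bisphosphatase. It stood at 134 and 87.1 CPM in the mutants, against 751 and 358 CPM in the siblings. Both mutants lay far below both siblings, and the level was 5.01-fold lower (edgeR log2 fold change -2.32, SE 0.39, adjusted p = 0.00478). Its paralog *fbp1a* was at 74.0 and 62.7 CPM in the mutants, against 149 and 89.3 CPM in the siblings, and was not called (-0.80, SE 0.26, edgeR adjusted p = 0.0958).

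*pck1* encodes the cytosolic phosphoenolpyruvate carboxykinase, an entry step of gluconeogenesis induced by fasting in mammals. It was at 167 and 195 CPM in the mutants, against 118 and 90.6 CPM in the siblings. Both mutants lay above both siblings, but the gene was not called (edgeR log2 fold change 0.79, SE 0.23, 95% interval 0.28 to 1.31, adjusted p = 0.0648). It was called without sibling 1 (edgeR adjusted p = 0.0149), and over 12 alternatives its adjusted p ran from 0.00342 to 0.347. Within each library, the ratio of *pck1* counts to *fbp1b* counts was 1.25 and 2.24 in the mutants, against 0.157 and 0.253 in the siblings. The mutant ratios were both above the sibling ratios, and no test was made of them.

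Of 13 other genes of gluconeogenesis and glycogen tested, 4 fell and none rose, with a median log2 fold change of -0.80 (-0.42 without sibling 1). The mitochondrial carboxykinase gene *pck2* (-0.94, SE 0.21), the liver glycogen synthase gene *gys2* (-1.04, SE 0.27) and the glycogenin gene *gyg2* (-1.48, SE 0.38) were among those that fell. The glucose-6-phosphatase genes *g6pc1a.1* (0.12, SE 0.29) and *g6pc1a.2* (-0.61, SE 0.24), which act at the last step, were not called. No gene of this list was called without mutant 1 or without mutant 2, and 1 was called with library totals alone.

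Of the 2 transcription factor genes, *hnf4a* fell. Its product is a nuclear receptor needed for hepatocyte gene expression. It stood at 21.2 and 21.9 CPM in the mutants, against 40.6 and 48.7 CPM in the siblings. The groups were clearly apart (edgeR log2 fold change -1.05, SE 0.23, adjusted p = 0.0205). Its call was lost without mutant 1 and without mutant 2 (adjusted p = 0.0749 and 0.0826), and the lowest of its 12 alternatives was 0.000662.

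*nr1h4* encodes the bile acid receptor FXR. It was at 7.04 and 6.61 CPM in the mutants, against 12.6 and 14.8 CPM in the siblings, which is 64 and 23 counts against 56 and 47 counts. Both mutants were below both siblings, and the log2 fold change was close to that of *hnf4a*, but it was not called (-0.99, SE 0.33, 95% interval -1.72 to -0.26, edgeR adjusted p = 0.0983).

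Of 22 other hepatic transcription factor genes tested, 3 fell and none rose, with a median log2 fold change of -0.41. *hnf4g*, a relative of *hnf4a* expressed in mammalian intestine, stood at 8.14 and 7.76 CPM in the mutants, against 24.8 and 21.4 CPM in the siblings (edgeR log2 fold change -1.53, SE 0.29, adjusted p = 0.00982). *prox1a* (-0.79, SE 0.21) and *gata6* (-0.96, SE 0.26), which act in early liver development, were the others. The fourth by p, *pparaa*, a receptor that drives fatty acid oxidation genes, was not called (-0.72, SE 0.27, edgeR adjusted p = 0.134). Without mutant 1, without mutant 2, with DESeq2 and with library totals alone, 1 gene of this list was lower in each case.

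Bile acid genes, some of which FXR controls in mammals, gave 4 that fell and none that rose among 8 tested, with a median log2 fold change of -0.70. *cyp7a1*, the rate-limiting enzyme of bile acid synthesis, stood at 57.2 and 43.4 CPM in the mutants, against 282 and 223 CPM in the siblings (edgeR log2 fold change -2.32, SE 0.25, adjusted p = 0.000470). The other 3 were *cyp8b1.1* (-1.97, SE 0.29), *hsd3b7* (-0.91, SE 0.22) and *slc27a2a* (-0.86, SE 0.22), all of which act in bile acid synthesis or conjugation. Without mutant 1, without mutant 2 and with library totals alone, 2 of the 8 were lower.

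Of 16 other secreted liver proteins tested, 3 fell and 1 rose, with a median log2 fold change of -0.53. *ahsg2*, a fetuin gene, had 7.92 and 2.30 CPM in the mutants, against 65.4 and 44.6 CPM in the siblings (edgeR log2 fold change -3.26, SE 0.42, adjusted p = 0.00113). *itih3b.1* (-1.35, SE 0.24) and *leg1.1* (-1.55, SE 0.34) also fell. The angiotensinogen gene *agt* rose, with 202 and 155 CPM in the mutants, against 98.3 and 76.1 CPM in the siblings (edgeR log2 fold change 1.03, SE 0.24, adjusted p = 0.0265). Without mutant 1 and without sibling 2 no gene of this list was higher, while without mutant 2, 1 was lower and without sibling 2, 5 were.

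Of the 11 calls of lower genes, 7 held under all 12 alternatives, namely those of *ttr*, *gc*, *rbp2b*, *tdo2a*, *agxtb*, *uox* and *fbp1b*. The other 4, those of *serpina1*, *itih3a*, *hgd* and *hnf4a*, were each lost when at least 1 library was left out.

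**Figure D4:**
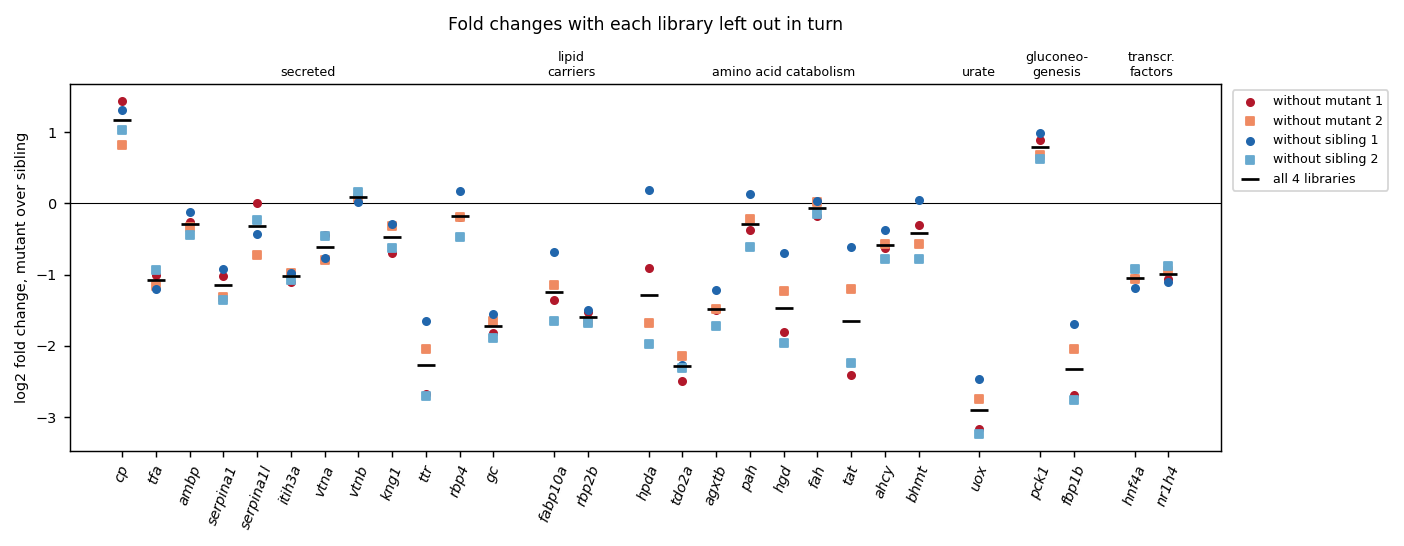
Log2 fold change of each gene, mutant over sibling, with all 4 libraries (black dash) and with each library left out in turn (coloured points). For *hpda*, *pah*, *rbp4*, *bhmt* and, by a small margin, *fah* the point without sibling 1 is above 0 while the dash is below it.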

How the data were processed

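The authors deposited raw counts per RefSeq accession for 2 mutant and 2 sibling libraries. Per the submitters' processing notes, the tools included Bowtie2 (2.1.0), HTSeq and DESeq2, and the build was GRCz10. Settings, annotation and use of strand are not known here, so reads of overlapping genes or near-identical copies may be shared. Accessions were matched to symbols through a RefSeq table of assembly GRCz12tu, for names and gene order only, and 14472 of 15171 rows matched. Every per-sample column was mapped by its sample title, and the repeat table was not used.

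Counts were tested in R 4.3.3 with edgeR 4.0.16 (filterByExpr, TMM, glmQLFit, glmQLFTest, no block), with Benjamini-Hochberg adjustment over 12786 genes. Standard errors are the log2 fold change divided by the square root of F. The steps were tested on simulated data. The biological coefficient of variation was 20.0%, and the replicates were not duplicates (chi-square per degree of freedom 14.4 for mutants and 16.9 for siblings). The 28 genes, the other lists and the tests were chosen with earlier results of these data known, and list counts and medians are descriptions. The text names all 28 genes, their paralogs, *uhrf1* and the 4 or fewer genes of lowest p in each other list. Named after their values were seen were *afmid*, *haao*, *mat1a*, *ass1*, *g6pc1a.1*, *g6pc1a.2*, *allc*, *uraha*, *urad*, *apobb.1* and *krt8*. Alternatives were other scalings and filters, DESeq2 1.42.0, limma-voom 3.58.1, summed rows, the replicate number as a block and leaving out each library. Summing rows left the counts of the 28 genes unchanged, as no symbol among them had several rows, so that fit stays close to the main one. Some genes counted in the lists are not reported here by name. No sequences were used.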

Additional observations from a re-analysis of the deposited data

How the results depend on the processing

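With the replicate number as a block, 17 of the 28 genes were lower and 2 higher (11 and 1 without it), and 1165 genes were lower and 1366 higher over all genes (485 and 585 without it), which is 9.11% and 10.7% of those tested. The labels do not say that a number marks a clutch. The difference between mutants 1 and 2 correlated with that between siblings 1 and 2 at r = 0.25 across genes, which are not independent. Leaving out 1 library gave 7 to 14 of the 28 genes lower and 0 to 2 higher, and 243 to 754 genes lower and 333 to 805 higher over all genes. The low ends came without mutant 2 and the high ends without sibling 2, except that the 2 higher of the 28 came without sibling 1. Log2 fold changes turned above 0 without sibling 1 for *rbp4* (-0.47 to 0.17 over the 4 fits with 1 library left out), *hpda* (-1.97 to 0.18), *pah* (-0.61 to 0.13), *bhmt* (-0.78 to 0.0391) and *fah* (-0.18 to 0.0377). That of *fah* also did with library totals (0.0208) and without mutant 2 (0.0232), and that of *serpina1l* was 0.00012 without mutant 1 and -0.72 without mutant 2. Without a block, none of these 6 genes was called with all 4 libraries, and the cause was not tested. With the block, *hpda* alone of the 6 was called, as lower (edgeR log2 fold change -1.16, adjusted p = 0.0173). The log2 fold changes of *ahcy* (-0.37), *kng1* (-0.28) and *ambp* (-0.12) were closer to 0 without sibling 1. Of the 16 genes not called, 7 were called under at least 1 of 12 alternatives and 9 under none. The other scalings, filters and tools, and summed rows, gave 10 to 13 of the 28 genes lower and 1 higher. No scaling moved the median of all genes by more than 0.08 on the log2 scale. The SE was 0.33 for *nr1h4*, with 23 to 64 counts a library, and 0.35 for *tfa*, with 3142 to 7283, and the part of depth in these errors was not tested.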

Other observations

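Sibling 1 lay above sibling 2 for 22 of the 28 genes (78.6%), against 49.8% of all genes tested. It did so for 9 of 9 genes of amino acid catabolism and for both gluconeogenic enzymes, and for 0 of the 2 transcription factor genes. The ratio of the higher to the lower sibling was 4.43 for *hpda*, 3.09 for *tat*, 2.41 for *hgd* and 2.08 for *ttr*. Between the mutants, mutant 1 was above mutant 2 for 15 of the 28 genes (53.6%), against 50.3% of all genes tested. The median ratio of the higher to the lower library over the 28 genes was 1.15 in mutants and 1.29 in siblings.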
